A study of Homo sapiens with 6 samples.

Results

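The interferon module described here is a list of 43 genes: sensors of double-stranded RNA, the signalling proteins next to them and downstream interferon-stimulated genes. Members were taken by symbol from a table of 58735 genes, and all 43 were found, 9 of them as sensors, 5 as signalling genes and 29 as interferon-stimulated genes. Expression was measured by RNA sequencing in the established cell line TPC1, derived from a papillary thyroid cancer, 60 h after transfection. In 3 samples the transfected siRNA was si-circ_0000839, directed at the circular RNA hsa_circ_0000839, and in 3 it was a negative-control siRNA (NC). Both groups therefore carried a transfected double-stranded RNA, and no untransfected cells are among the 6 samples, so the values compare the siRNAs with each other and not with resting cells. The labels do not say whether the samples were separate cultures, so a p-value here refers to the variation among the 3 samples of each group, which may be technical. The circular RNA itself was not matched to the gene table, so its depletion was not checked here.

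Cells detect double-stranded RNA in the cytosol with the helicases RIG-I (DDX58), MDA5 (IFIH1) and LGP2 (DHX58), in endosomes with TLR3, and with the kinase PKR (EIF2AK2) and the oligoadenylate synthetases. RIG-I and MDA5 signal through MAVS to IRF3 and IRF7, which switch on interferon genes. Secreted interferon then acts through factors that include STAT2 and IRF9, which bind the interferon-stimulated response element in the promoters of antiviral genes. Most sensors are themselves interferon-stimulated, so the 2 classes overlap, and the division used here follows the best known role of each protein.

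Libraries held 18399558 to 19334633 reads recovered from the table. Values are FPKM, fragments scaled by gene length and by a total for each library. That total was below the recovered reads in si-circ_0000839 replicate 1 (18337464 against 18888554) and above them in NC replicate 1 (19401300 against 19032870). The reason was not tested. The length is that of all annotated exons of a gene, used in these cells or not. Levels can therefore be compared between genes only roughly, and a gene with much unused annotated exon is listed too low. Of the thyroid markers, PAX8, FOXE1 and HHEX averaged 96.1, 11.2 and 2.78 FPKM over the 6 libraries, while NKX2-1, TSHR and SLC5A5 had 0 reads in each and TG averaged 0.136 FPKM. Among the leukocyte markers PTPRC, CD3E and TYROBP had 0 reads, and LCP1, at 213 FPKM, made up nearly all of the summed level (206 to 224 FPKM after si-circ_0000839, 207 to 213 in NC). The defining plasmacytoid dendritic cell markers CLEC4C and LILRA4, from the main interferon-producing cell type, were also at 0. The other markers listed for that cell type, IL3RA and TCF4, had reads and averaged 0.243 and 0.215 FPKM. The summed level of 5 fibroblast markers was 14.5 to 19.1 FPKM after si-circ_0000839 and 20.1 to 25.2 in NC, nearly all of it LUM, and that of 5 endothelial markers 3.33 to 4.15 against 2.65 to 2.9997, nearly all of it ROBO4. COL1A2, DCN, KDR and CDH5 had under 2 reads per library on average, and the part of these differences in the results was not tested.

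The TPC1 cells expressed the interferon module at a wide range of levels in both groups. Reads were found for 42 of the 43 members, and 34 had a mean of at least 1 FPKM and were tested. IFI6, an interferon-induced mitochondrial protein, was the most abundant at 340 FPKM on average, followed by the ubiquitin-like modifier ISG15 at 136, its conjugating enzyme UBE2L6 at 37.1 and the synthetase OAS3 at 33.2. The lowest and highest libraries were 282 and 403 FPKM for IFI6 and 120 and 162 for ISG15, so these 2 ranges lie apart from each other and from all other members. Below them levels declined in small steps, and neighbours such as UBE2L6 (31.1 to 44.4 FPKM) and OAS3 (31.4 to 36.3) overlapped. The median member was at 3.75 FPKM. Several classical antiviral genes had low FPKM: MX1, a dynamin-like GTPase, averaged 1.62 FPKM, its relative MX2 0.156, and RSAD2, which encodes viperin, 0.912. FPKM divides by the listed length, 8616 bases for MX1 and 13047 for MX2, and the part of length in these low values was not tested. MX1 averaged 262 reads per library and MX2 38.3, while USP18, at 3.43 FPKM, averaged 137.5 reads on a length of 2129 bases. XAF1, a pro-apoptotic interferon-stimulated gene, had 0 reads in all 6 libraries, where 3 reads would have given 0.0231 to 0.0249 FPKM.

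**Figure D1:**
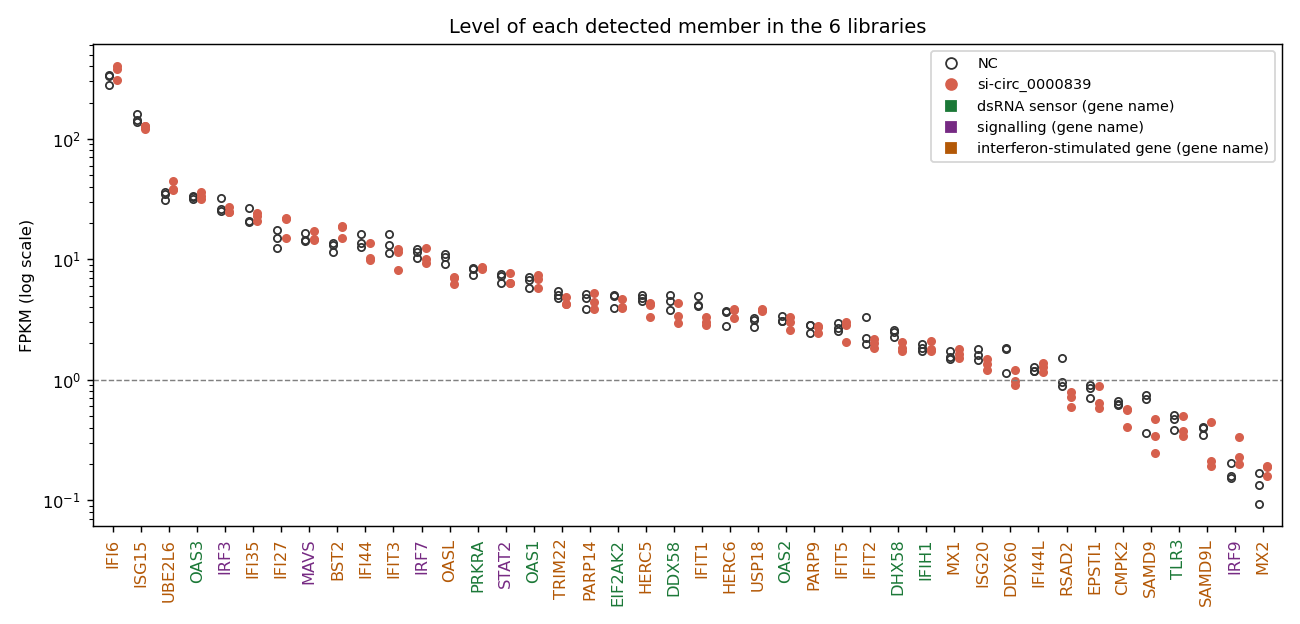
FPKM (log scale) of the 42 members with reads, ordered by mean, with 1 point per library, open for NC and filled for si-circ_0000839. The colour of a name gives the role, and the dashed line marks the 1 FPKM minimum for testing. IFI6 and ISG15 stand above all others, and OASL and IFIT1 are among the genes whose filled points all lie below the open ones.

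After si-circ_0000839, 1 of the tested members changed past the threshold, and the other 33 lay on both sides of their NC level without passing it. OASL, a catalytically inactive relative of the oligoadenylate synthetases with ubiquitin-like repeats that promotes RIG-I signalling, fell 1.51-fold. The test was limma on log2(FPKM + 1) with Benjamini-Hochberg adjustment over 10674 genes, and 1 of 34 tested members had an adjusted p under 0.05, beside 41 of all tested genes (0.384%, with 0.253% lower). On this scale the change of a weakly expressed gene is understated. Fold values were therefore computed from the mean FPKM of each group. Of the 34 members 20 lay below 0 and 14 above, with a median log2 change of -0.036, beside 48.2% below 0 and a median of 0.0057 over all tested genes. At an unadjusted p under 0.05 there were 7 lower and 4 higher members, 32.4% of those tested, where all genes gave 12.6%. Groups did not overlap for 8 members (23.5%), 5 lower and 3 higher, against 18.1% of all tested genes, 7.55% lower and 10.6% higher.

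**Figure D2:**
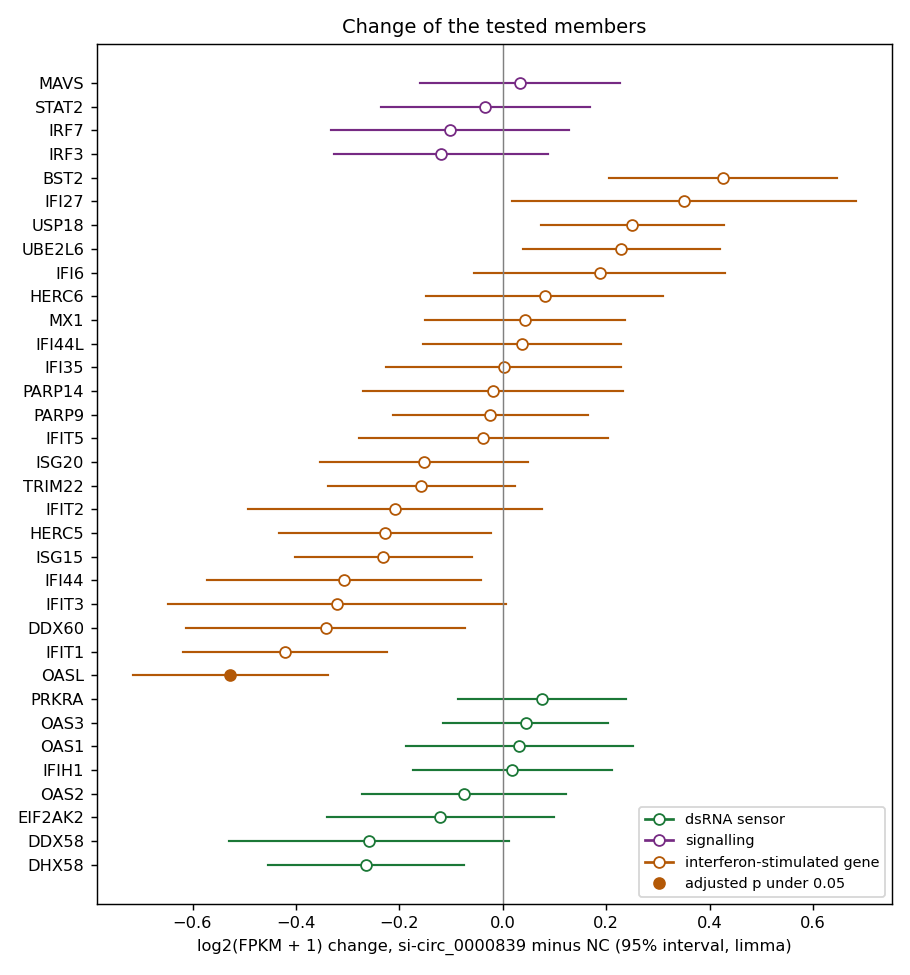
Log2(FPKM + 1) change (si-circ_0000839 minus NC) of the 34 tested members with the 95% interval from limma, coloured by role. Only the filled point, OASL at -0.53, had an adjusted p under 0.05, and BST2 at 0.43 lies at the other end.

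The 3 helicase sensors had differing values. DDX58 (RIG-I) was at 2.94, 3.40 and 4.37 FPKM in si-circ_0000839 replicates 1, 2 and 3 and at 5.04, 3.78 and 4.52 in NC. The groups overlapped, since the highest silenced library lay above NC replicate 2 (log2 change -0.26, 95% interval -0.53 to 0.012, limma adjusted p = 0.416). DHX58 (LGP2), a regulator of the other helicases, was at 2.07, 1.73 and 1.84 FPKM against 2.28, 2.61 and 2.49 in NC. Here all 3 silenced libraries lay below all 3 NC libraries, but the change missed the threshold (log2 change -0.26, SE 0.086, limma adjusted p = 0.250). IFIH1 (MDA5), which prefers long double-stranded RNA, was at 1.81, 2.09 and 1.74 FPKM against 1.85, 1.72 and 1.96, with a log2 change of 0.019 and an interval of -0.17 to 0.21. These levels rest on 157 to 329 reads per library on average. TLR3, the endosomal sensor, was at 0.341 to 0.501 FPKM after si-circ_0000839 and 0.383 to 0.514 in NC, below the minimum for testing.

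PKR and its activator were at similar values in the groups. EIF2AK2, the kinase that halts translation on binding double-stranded RNA, was at 3.91, 4.72 and 4.01 FPKM against 4.98, 3.97 and 5.08 in NC, and the groups overlapped (log2 change -0.12, interval -0.34 to 0.099). PRKRA, the PKR activator PACT that also serves Dicer, was at 8.36, 8.60 and 8.53 against 7.38, 8.42 and 8.29 (log2 change 0.075, interval -0.087 to 0.24).

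The 3 oligoadenylate synthetases, which activate RNase L on binding double-stranded RNA, differed in level far more than between groups. OAS3, the largest of them, was at 36.3, 33.6 and 31.4 FPKM after si-circ_0000839 and 33.1, 31.7 and 33.2 in NC. OAS1 was at 7.43, 5.80 and 6.90 against 5.77, 6.76 and 7.06, and OAS2 at 3.33, 2.995 and 2.61 against 3.07, 3.07 and 3.40. Groups overlapped for all 3, with log2 changes of 0.044, 0.032 and -0.075 and adjusted p from 0.778 to 0.931. Over the 8 tested sensors 4 lay below 0 and 4 above, 0 passed the threshold, and the median log2 change was -0.028. Of the 8, 1 (DHX58) had an unadjusted p under 0.05 and groups without overlap. Each is a share of 12.5%, beside 12.6% and 18.1% of all tested genes.

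Signalling genes also stayed within the spread of their libraries. MAVS, the mitochondrial adaptor, was at 17.2, 14.6 and 14.5 FPKM against 14.2, 16.5 and 14.5 in NC (log2 change 0.034, interval -0.16 to 0.23). IRF3, a transcription factor activated through MAVS, was at 27.4, 24.6 and 24.5 FPKM against 26.3, 32.1 and 25.3, NC replicate 2 being the highest. Its exons share 19.3% of their bases with BCL2L12 on the other strand, itself at 29.5 FPKM, and reads of the pair cannot be told apart where the strand setting is not given. IRF7, the interferon-inducible factor, ranged from 9.23 to 12.4 FPKM and STAT2 from 6.30 to 7.69, with overlapping groups and adjusted p of 0.737 and 0.918. IRF9, the DNA-binding partner of STAT2, was listed at 0.152 to 0.335 FPKM in the 6 libraries, on a mean of 15.3 reads. Of its exon bases 48.4% are shared on the same strand with the read-through gene AL136295.5, at 0.109 FPKM, so how much of its RNA was assigned to it depends on how shared reads were counted, which is not given in the sources used here.

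OASL (ENSG00000135114; GRCh38, chromosome 12, 121019111 to 121039242, minus strand) was at 6.19, 6.95 and 7.11 FPKM in the si-circ_0000839 libraries and 11.0, 10.4 and 9.17 in NC. Every silenced library lay below every NC library, with 446.7 reads per library on average against 675.7, and no other gene shares its exons. Group means were 6.75 ± 0.493 and 10.2 ± 0.932 FPKM (SD, n = 3 per group), a log2 change of -0.53 (SE 0.085, limma adjusted p = 0.0257). The direction held in all 17 alternative settings and the call in 8 of them. It was lost without any 1 of si-circ_0000839 replicates 1, 2 and 3 (adjusted p = 0.0862, 0.0504 and 0.0623), without NC replicate 1 (0.105) or 2 (0.0728), and kept without NC replicate 3 (0.0332).

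The IFIT genes, whose proteins bind foreign RNA, were lower in their group means at all 4 loci, none past the threshold. IFIT1, which recognises RNA lacking cap methylation, was at 2.84, 3.01 and 3.33 FPKM against 4.21, 4.13 and 4.998 in NC. Its groups did not overlap, and means were 3.06 ± 0.252 and 4.45 ± 0.480 (SD, n = 3), 1.45-fold lower (log2 change -0.42, SE 0.089, limma adjusted p = 0.0922). IFIT3, which stabilises IFIT1, was at 8.16, 11.5 and 12.1 FPKM against 16.1, 11.2 and 13.0, so that NC replicate 2 lay below both si-circ_0000839 replicates 2 and 3. IFIT2 was at 1.82 to 2.17 FPKM against 1.99 to 3.32 and IFIT5 at 2.06 to 3.02 against 2.52 to 2.94, with log2 changes of -0.21 and -0.038. Single libraries set much of these values. Without NC replicate 1 the log2 change was -0.05 for IFIT2, -0.19 for IFIT3 (-0.32 with all libraries) and 0.0039 for IFIT5. Without si-circ_0000839 replicate 1 it was -0.17 for IFIT2, -0.16 for IFIT3 and 0.083 for IFIT5, and without NC replicate 2 it was -0.32 for IFIT2.

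**Figure D3:**
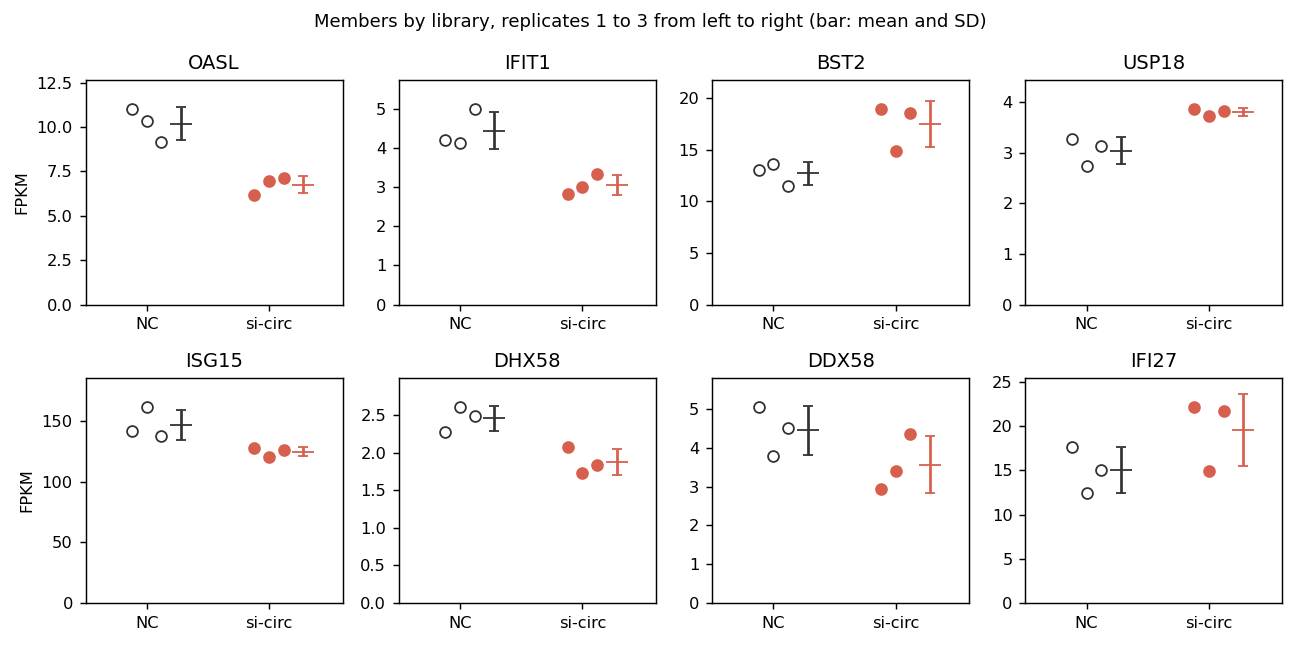
FPKM of 8 members in each library (axes from 0), NC open and si-circ_0000839 filled, with replicates 1 to 3 from left to right and the mean and SD of the 3 libraries beside them. OASL, IFIT1, ISG15 and DHX58 separate downward and BST2 and USP18 upward, while the groups of DDX58 and IFI27 overlap.

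Genes of the ISG15 conjugation system lay on opposite sides of their NC values. ISG15 was at 128, 120 and 127 FPKM after si-circ_0000839 and 142, 162 and 138 in NC, and HERC5, the main ISG15 ligase, at 3.33, 4.34 and 4.14 against 4.74, 4.52 and 5.01. Both had all silenced libraries below all NC libraries (log2 change -0.23 for each, limma adjusted p = 0.261 and 0.348). By contrast UBE2L6, the conjugating enzyme, was at 44.4, 37.7 and 38.3 FPKM against 31.1, 36.4 and 34.7. USP18, the protease that removes ISG15 and restrains the interferon receptor, was at 3.87, 3.73 and 3.83 against 3.27, 2.74 and 3.13. These 2 separated upward (log2 change 0.23 and 0.25, limma adjusted p = 0.310 and 0.244). HERC6, a related ligase, ranged from 3.24 to 3.85 against 2.79 to 3.75. None of the 5 passed the threshold. Groups did not overlap for 4 of them, beside 18.1% of all tested genes (7.55% lower and 10.6% higher), and the difference in share was not tested.

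BST2, the tetherin that holds budding virus at the cell surface, had the largest value above 0 of the 34 members. It was at 19.0, 14.9 and 18.55 FPKM after si-circ_0000839 and 13.1, 13.6 and 11.5 in NC, with no overlap and a lower silenced value in replicate 2. Means were 17.5 ± 2.23 and 12.7 ± 1.13 FPKM (SD, n = 3), 1.37-fold higher, with a log2 change of 0.43 (SE 0.0997, limma adjusted p = 0.114). Without that replicate 2 the limma adjusted p was 0.0416. With any other single library left out it was 0.104 to 0.345, above the threshold. Among the other tested direct effectors, OASL aside, the groups overlapped: the restriction factor TRIM22 ranged from 4.25 to 4.83 FPKM against 4.73 to 5.48, the exonuclease ISG20 from 1.22 to 1.47 against 1.46 to 1.79, and MX1 from 1.52 to 1.81 against 1.49 to 1.72. MX2, at 0.158 to 0.191 against 0.0928 to 0.169 with overlap, was not tested, and neither were RSAD2 and CMPK2, whose silenced libraries all lay below the NC libraries, at means of 0.700 against 1.12 and 0.510 against 0.640 FPKM. The share of genes at such low levels whose groups separate was not computed.

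Among the remaining interferon-stimulated genes, whose functions are less uniform, groups overlapped for all 8 tested. IFI44 was at 9.95, 10.3 and 13.7 FPKM against 16.1, 13.5 and 12.8. The helicase DDX60 was at 0.905, 1.21 and 0.974 FPKM against 1.84, 1.14 and 1.79, with silenced replicate 2 above NC replicate 2. Its mean was 1.54-fold lower, a larger fold than that of OASL, at a low level and without passing the threshold (log2 change -0.34, limma adjusted p = 0.287). IFI27 was at 22.1, 14.9 and 21.7 FPKM against 17.6, 12.4 and 15.1. Its log2 change was 0.35 with a wide unadjusted interval of 0.019 to 0.68, and it did not pass the threshold (limma adjusted p = 0.371). Its family member IFI6 was at 403, 308 and 378 against 336, 282 and 335. Both had their lowest silenced value in replicate 2 and their lowest NC value in replicate 2. PARP9 and PARP14, ADP-ribosyltransferases, and IFI35 and IFI44L had log2 changes between -0.024 and 0.038. The low genes SAMD9, SAMD9L and EPSTI1 averaged 0.479, 0.333 and 0.763 FPKM and were not tested. Over the 22 tested interferon-stimulated genes 13 lay below 0 and 9 above, with a median log2 change of -0.031 and a range of -0.53 to 0.43.

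Promoters of the genes with the lowest p are shown to compare members at both ends of the range, with close family members. RefSeq sequences (GRCh38.p14), 250 bases before to 50 after the transcription start, were found for 34 of the 43 members, and OASL is not among them. The search was for the core of the interferon-stimulated response element, written here from general knowledge as GAAA, any 2 bases and GAAA again, on both strands, with overlapping matches counted separately. Capitals mark the matches in IFIT1 (chr10:89392373-89392672, plus strand), IFIT3 (chr10:89327747-89328046, plus strand), BST2 (chr19:17405581-17405880, minus strand) and OAS1 (chr12:112906712-112907011, plus strand), each printed 5′ to 3′ along the gene.
IFIT1: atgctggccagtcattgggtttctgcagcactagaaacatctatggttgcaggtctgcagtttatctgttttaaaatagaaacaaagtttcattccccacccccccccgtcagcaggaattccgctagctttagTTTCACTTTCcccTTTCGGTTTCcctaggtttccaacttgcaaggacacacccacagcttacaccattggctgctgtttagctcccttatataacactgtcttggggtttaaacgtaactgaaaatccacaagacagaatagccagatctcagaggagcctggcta
IFIT3: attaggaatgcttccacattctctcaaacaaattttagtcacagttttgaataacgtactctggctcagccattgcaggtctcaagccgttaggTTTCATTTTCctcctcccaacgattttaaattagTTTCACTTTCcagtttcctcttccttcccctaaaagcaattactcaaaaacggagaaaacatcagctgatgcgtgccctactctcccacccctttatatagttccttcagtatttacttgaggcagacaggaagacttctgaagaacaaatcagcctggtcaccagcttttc
BST2: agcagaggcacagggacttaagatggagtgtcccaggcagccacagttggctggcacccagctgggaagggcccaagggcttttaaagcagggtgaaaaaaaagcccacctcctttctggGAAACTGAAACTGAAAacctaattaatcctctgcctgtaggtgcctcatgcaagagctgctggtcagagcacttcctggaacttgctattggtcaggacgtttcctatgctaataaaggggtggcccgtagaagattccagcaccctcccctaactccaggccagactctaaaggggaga
OAS1: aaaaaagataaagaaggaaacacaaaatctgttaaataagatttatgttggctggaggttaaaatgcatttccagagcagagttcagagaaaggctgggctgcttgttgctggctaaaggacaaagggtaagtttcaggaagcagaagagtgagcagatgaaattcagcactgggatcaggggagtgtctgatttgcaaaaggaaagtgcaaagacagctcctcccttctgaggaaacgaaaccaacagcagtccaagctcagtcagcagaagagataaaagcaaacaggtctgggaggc
IFIT1, IFIT3 and BST2 each held 2 matches. In IFIT1 they begin at positions -116 and -103 and in IFIT3 at -156 and -122 from the start site, read on the opposite strand, and in BST2 at -130 and -124, where they overlap. OAS1 held none in this window at the spacing searched. Its sequence does hold 2 GAAA boxes closer together near the start site, which the search does not count, so the absence of a match does not mean that the element is absent.

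The core was found in 20 of the 34 member promoters (58.8%), 4 of 7 sensors, 0 of 3 signalling genes and 16 of 24 interferon-stimulated genes, beside 3.57% of all 35116 RefSeq promoters of the same length. Whether direction differed with the match was not tested. Of 17 tested members with a match 10 lay below 0 and 7 above, with log2 changes from -0.42 (IFIT1) to 0.43 (BST2) and a median of -0.038. Of 9 without a match, OAS1 among them, 3 lay below and 6 above, with a median of 0.032.

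The libraries within a group differed for this module. Of the 42 members with reads, 19 had their lowest value in si-circ_0000839 replicate 1 and 11 their highest there, while si-circ_0000839 replicate 3 held 3 lowest and 1 highest. The spread within groups on the log2(FPKM + 1) scale had a median SD of 0.124 over the 34 tested members and 0.104 over all tested genes, and it was largest for IFI27 (0.273) and IFIT3 (0.266). In si-circ_0000839 replicate 1 a member's deviation from its mean over the 6 libraries moved with the GC content of its longest transcript (Pearson's r = 0.59 across 34 members, 0.57 across all tested genes). In NC replicate 2 the same values were 0.33 and 0.34. They were negative in NC replicate 1 (-0.42 and -0.30), NC replicate 3 (-0.44 and -0.37) and si-circ_0000839 replicate 2 (-0.37 and -0.37). In si-circ_0000839 replicate 3 they were -0.052 and -0.046. A gene's deviations sum to 0 over the 6 libraries, so values of opposite sign are tied to each other. These correlations are across genes of 1 library, which are not independent, and describe the libraries. The 17 members of lowest GC content (37.4% to 47.0%) had a median deviation of -0.18 in si-circ_0000839 replicate 1, and 13 of them had a log2 change below 0. In the 17 of highest GC content (48.2% to 66.8%) the deviation was 0.14, and 7 lay below 0. Pearson's r between GC content and log2 change was 0.24 across the 34 members and 0.17 across 10670 tested genes. The log2 change includes si-circ_0000839 replicate 1, so it is tied to the deviation in that library, and a part of GC content in it was not tested.

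**Figure D4:**
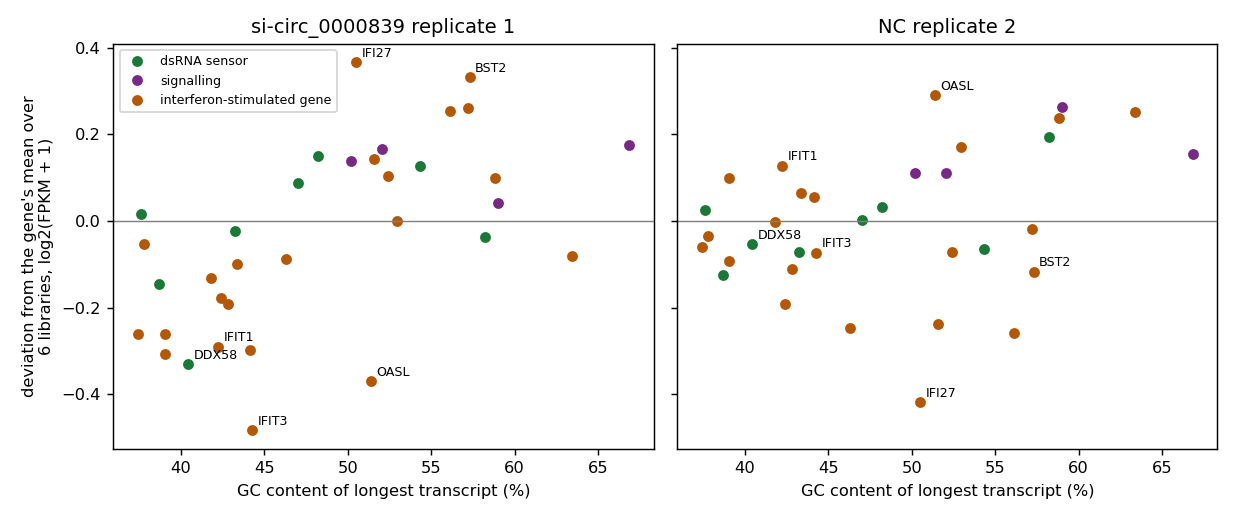
Deviation of each tested member from its mean over the 6 libraries, on the log2(FPKM + 1) scale, against the GC content of its longest transcript, in si-circ_0000839 replicate 1 and in NC replicate 2. IFIT3, DDX58 and IFIT1 lie low in the first library and IFI27 and BST2 high, while OASL, with 51.4% GC, lies low in the first and high in the second.

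When a smooth trend on GC content and gene length was taken out of each library, OASL kept its call (log2 change -0.54, limma adjusted p = 0.0160) and IFIT1 and BST2 passed as well, at log2 changes of -0.40 and 0.46 (limma adjusted p = 0.0257 for each). In that fit 220 of 10670 genes passed (2.06%). DHX58 came to an adjusted p of 0.0519 in it. With both si-circ_0000839 replicate 1 and NC replicate 2 left out, the log2 changes of OASL, IFIT1 and BST2 were -0.46, -0.42 and 0.41, with limma adjusted p of 0.0892, 0.111 and 0.153, and 0 members passed.

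The rest of the pathway was read from a further list of 74 genes. Interferon genes themselves were nearly silent. Of 10 ligand genes 7 had 0 reads in every library, the highest, IFNE, averaged 0.0719 FPKM, and IFNB1 had 0.167 reads per library. Of 10 receptor and kinase genes 7 were tested and 0 passed. IFNGR1, a subunit of the interferon gamma receptor, had the smallest p (limma adjusted p = 0.570), at 9.49 ± 1.07 FPKM against 10.5 ± 0.831 in NC (SD, n = 3). The subunits of the type I interferon receptor, named after their values were seen, stood at 2.98 FPKM for IFNAR1 and 0.209 for IFNAR2 on average.

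Of 11 tested genes of the sensing pathway 0 passed, 8 above 0 and 3 below. TRIM25, the RIG-I ubiquitin ligase, was the most abundant at 25.3 against 24.0 FPKM, and the transcription factor IRF1, first by p, was at 8.09 ± 0.149 against 7.06 ± 0.311 (limma adjusted p = 0.332). Of 21 further interferon-induced genes 0 passed, 14 above 0 and 7 below. The membrane restriction factor IFITM3 was at 343 ± 39.9 against 311 ± 7.48 FPKM, and its relative IFITM2 at 26.5 ± 0.783 against 22.8 ± 1.34 (limma adjusted p = 0.259). Of 12 tested genes for double-stranded RNA-binding proteins and eIF2 control 0 passed, with ILF2 the most abundant at 147 FPKM on average and PPP1R15A, a phosphatase subunit acting on eIF2, at 46.2 against 41.8. In all, 33 of the 51 tested genes of this list lay above 0 and 18 below, with a median log2 change of 0.067, so 35.3% lay below 0 where all tested genes gave 48.2%. An unadjusted p under 0.05 was found for 7 (13.7%, beside 12.6% of all tested genes), 6 higher and 1 lower. Groups did not overlap for 9 (17.6%, beside 18.1%), 9 higher and 0 lower.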

How the data were processed

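RNA of 6 TPC1 samples was sequenced, 3 per group, with groups and replicate numbers taken from the sample titles. The authors deposited FPKM values per gene with lengths and coordinates, per the file headers. Per the submitters' processing notes the tools were HISAT2 2.0.5 and featureCounts 1.5.0-p3. Build, strand setting and treatment of shared reads remain not given in the sources used here. All 58735 genes had the start, end and strand of GENCODE release 29, so coordinates are GRCh38. FPKM times length was a whole multiple (within 0.01) of 1 step per library for 100% of values above 0, which gave reads per gene. The total was 18399558 to 19334633 per library. No 2 libraries of a group agreed within sampling noise (chi-square per degree of freedom 2.98 to 9.95 on these reads).

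The 10674 genes averaging 1 FPKM or more were tested on log2(FPKM + 1), two-sided, with limma 3.58.1 (R 4.3.3; mean-variance trend), group as the only term and Benjamini-Hochberg adjustment over all of them at 0.05. The script was tested on simulated data. Alternatives were pseudocounts of 0.1 and 0.5, no filter, 5 FPKM as the minimum, scaling by quantiles, by median ratio or to TPM, a block for the replicate number, voom on the recovered reads, and libraries left out. A fit after removal of GC and length trends (splines, 5 degrees of freedom) was added after seeing the data. The members, lists and tests were chosen with earlier results of these data known. Named genes are all members, the most abundant gene and the tested gene with the smallest p of each role in the pathway list, and the markers at 0 or at 1 FPKM and above that bear on the cell type; a few that this rule names are not reported here. Promoters were shown for the 3 members with the smallest p, where found, and for a family member of the IFIT and OAS genes.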

Additional observations from a re-analysis of the deposited data

How the results depend on the processing

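The count of genes past the threshold, 41, was 4 with no filter, 68 at a minimum of 5 FPKM (33 higher and 35 lower), 63 after quantile scaling (29 and 34), 85 with voom on the recovered reads (48 and 37), 220 with the GC and length trend removed (111 and 109) and 26 without si-circ_0000839 replicate 1 and NC replicate 2 (11 and 15). TPM scaling gave 55 (32 higher and 23 lower, against 14 and 27 in the main test), and leaving out 1 library gave 20 to 38. The 1 member called became 0 with no filter, TPM scaling, the replicate block or both libraries left out, 2 at a minimum of 5 FPKM and 3 with the GC and length trend removed, and 0 to 1 with 1 library left out. For OASL the adjusted p was 0.266 with no filter and 0.0607 with TPM, and BST2 reached 0.0465 at a minimum of 5 FPKM. Each median covers the members that the setting tests, so a changed filter changes the genes in it. At a minimum of 5 FPKM only OAS1, OAS3 and PRKRA remained of the sensors, and the median, 0.044, is the unchanged value of OAS3. The median of the sensors, -0.028 in the main test, was -0.092 without both libraries, and 1 library left out gave -0.062 to 0.0054. The median of the interferon-stimulated genes, -0.031, was -0.11 with no filter, where members under the 1 FPKM minimum were added. It was -0.098 to -0.024 with 1 library left out.

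Of 560 values for the 34 tested members 511 kept direction and side of the threshold, 9 lost the call (all OASL), 4 gained it and 36, of 11 members that were not called, turned sign near 0. After removal of the GC and length trend OAS3 was at -0.0067, MAVS at -0.022, IFIT5 at 0.044 and MX1 at -0.0043. Without both libraries OAS3 was at -0.030, OAS1 at -0.012, PARP9 at 0.046, IFIT5 at 0.044 and MX1 at -0.025. IFI35 was at -0.011 after quantile and -0.012 after median-ratio scaling and -0.0048 with voom, and PARP14 at 0.00044 after TPM scaling. With 1 library left out, ranges that crossed 0 were -0.0082 to 0.093 for OAS3, -0.064 to 0.12 for IFI35, -0.042 to 0.097 for MAVS, -0.043 to 0.12 for OAS1, -0.11 to 0.013 for STAT2, -0.12 to 0.066 for PARP14, -0.023 to 0.14 for HERC6, -0.078 to 0.019 for PARP9, -0.11 to 0.083 for IFIT5 and -0.032 to 0.053 for IFIH1, and MX1 stayed between 0.0006 and 0.081. The cause of these changes was not tested.

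Same-numbered libraries of the groups deviated together with correlations of -0.15, -0.29 and 0.15, so the numbers were not taken as pairs. With the replicate number as a block 35 genes passed and OASL had an adjusted p of 0.0628. Depth limits the members of low level, such as IRF9 with 15.3 reads per library.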

Other observations

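RSAD2 and CMPK2, neighbours that are transcribed away from each other and share 14 bases of exon on opposite strands, both lay under the 1 FPKM minimum and were not tested. RSAD2, the viperin gene, was at 0.598, 0.715 and 0.787 FPKM after si-circ_0000839 and 1.52, 0.956 and 0.891 in NC. CMPK2, a mitochondrial nucleotide kinase, was at 0.406, 0.567 and 0.556 against 0.671, 0.614 and 0.635. In each gene all 3 silenced libraries lay below all 3 NC libraries, on means of 83.3 and 46.7 reads per library. The groups overlapped for the other untested members with reads, TLR3, IRF9, MX2, SAMD9, SAMD9L and EPSTI1. How often groups separate among all genes under 1 FPKM was not computed, and neighbouring genes need not be independent, so no result is read from this separation.

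SAMD9 and SAMD9L, adjacent paralogs that restrict translation, were highest in different libraries. SAMD9 was at 0.247, 0.475 and 0.341 FPKM against 0.752, 0.361 and 0.697, and SAMD9L at 0.191, 0.442 and 0.213 against 0.397, 0.347 and 0.405. The groups overlapped for each gene.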
